A study of Drosophila melanogaster with 4 samples.

Results

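Broad H3K23ac domains were the clusters of the replicate set that lay on 2L, 2R, 3L, 3R or X and were at least 8000 bp wide. H3K23ac is the acetylated form of a lysine in the tail of histone H3, and a cluster is a stretch of DNA that the authors called significantly enriched for it. There were 741 such domains among 17942 clusters of the set on these arms and 17999 on all sequences. No cluster outside the 5 arms was that wide. The domains were 4.13% of the clusters on the arms but held 8.87 Mb of the 49.7 Mb that clusters covered there, or 17.9%, and 7.45% of the arms' length. The members were chosen by their measured width in the replicate set, so their widths are a description.

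Acetylation of histone tails is generally found where chromatin is open and genes are transcribed, and in Drosophila the acetyltransferase Enok, a member of the MOZ and MORF family, acetylates H3K23. Acetylated regions usually take the form of short stretches at promoters and enhancers. In other systems, wide acetylated stretches have been described over highly transcribed genes and groups of neighbouring regulatory elements.

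In the series, chromatin from nuclei of wild-type Drosophila melanogaster larvae (strain Oregon-R, at the third instar) was precipitated with an antibody to H3K23ac and sequenced (ChIP-seq). It held 2 ChIP libraries (replicates 1 and 2) and 2 inputs, chromatin DNA sequenced without precipitation, and no treatment or mutant was compared. The values came from 3 lists of clusters in FlyBase release 5 coordinates, those of replicate 1, of replicate 2 and of the replicate set, made from both. None of the 3 was a list of the inputs. The larval tissues in the preparation are not named in the labels, and in a mix of tissues a domain of many cells and a strong domain of few cells cannot be told apart. The depth of the libraries is unknown, since no read totals were at hand. No label says that the replicates were separate batches of larvae, so their spread may be technical. Because the set was made from the replicates, overlap between a domain and their clusters is partly built in, and all such values are descriptions without a test. Binomial intervals cover counting error, and clusters next to each other are not independent.

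Most domains were little wider than the minimum, and a few were several times as wide. The median width was 10461 bp (quartiles 9061 and 13567 bp), 419 domains reached 10000 bp, 104 reached 16000 bp, 38 reached 20000 bp and 6 reached 30000 bp. The 3 narrowest domains, of 8001, 8007 and 8009 bp, scored 0.49, 0.59 and 0.40. The 3 widest clusters below the minimum, of 7999, 7991 and 7985 bp, scored 0.61, 0.46 and 0.51, so the minimum cut through a continuous range of regions.

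Domains scored above most clusters but below the strongest. The authors' score had a median of 0.51 over the domains (quartiles 0.46 and 0.57) and 0.38 over the other clusters of the set (0.34 and 0.43). Read as a log2 ratio, these medians are ratios of 1.43 and 1.30. Clusters of at least 4000 but under 8000 bp had a median score of 0.45, between these medians, so a higher score was not particular to domains. Scores of domains ran from 0.35 to 0.78, and 14 domains scored below the median of the other clusters. In contrast, 53 clusters scored above the highest-scoring domain. Their median width was 1077 bp and the widest had 7981 bp, so the highest scores of the set belonged mostly to narrow clusters. Narrow clusters also held the lowest scores. Scores ran from 0.09 to 3.33 under 1300 bp and from 0.066 to 2.05 at 1300 to 1999 bp. Wider domains scored slightly higher, with a Spearman's rho of 0.233 across the 741, which share libraries and depth. The median was 0.50 at widths under 10000 bp and 0.56 at 20000 bp or more.

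The numbers behind the score scaled with the whole domain. For each of the 741 domains, 2 raised to the score could be written as 1 whole number over another, multiplied by 1.12 for every cluster, within a relative tolerance of 1e-12. After random shifts of up to 1e-06 this held for 0 domains. Without shifts it also held for all 17201 other clusters, so this form of the score was not particular to domains. In lowest terms the median denominator was 2076 in domains and 302 in other clusters, or 215.4 and 182 per kb of cluster, so the whole numbers grew with width. If they are read counts, which no source states, counting error gives a domain's score a median SE of at most 0.042, against at most 0.11 for other clusters. The SD of the scores over domains was 0.076.

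**Figure D1:**
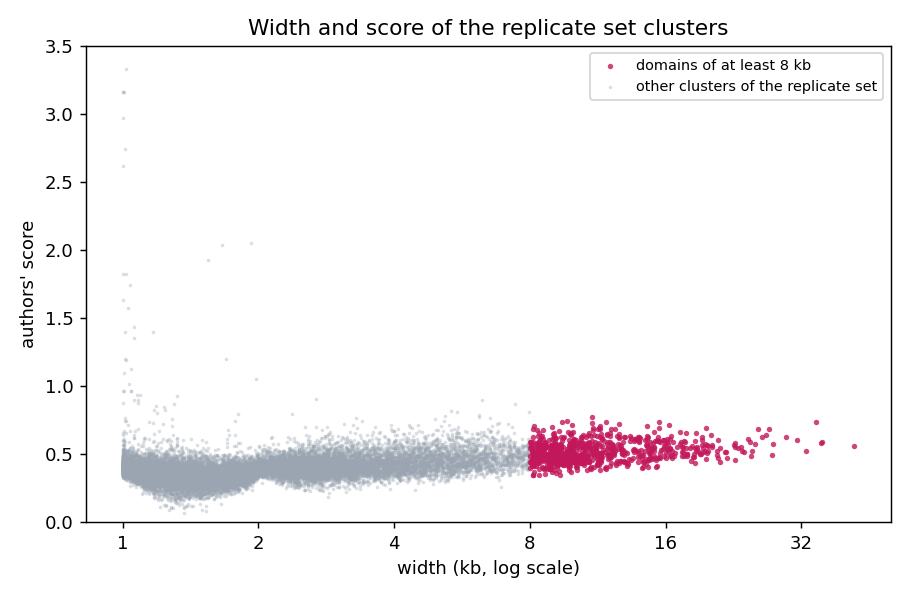
The authors' score (vertical axis, unit not stated) against width in kb (log scale) for clusters of the set on these 5 arms, with the 741 domains in red and the other clusters in grey. Domains lie between scores of 0.35 and 0.78, and the highest scores belong to clusters near 1 kb wide.

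The highest-scoring domain lay on 2R between 20231022 and 20242038 (11017 bp), with a score of 0.78. The highest-scoring domains of the other arms were those of 2L (1669760 to 1679452, score 0.74), X (1275388 to 1286382, score 0.73), 3L (1759150 to 1771756, score 0.72) and 3R (25381996 to 25390968, score 0.70). These 5 domains were filled to between 58.4% and 95.6% by replicate 1 and between 91.1% and 100% by replicate 2, where filled means covered by clusters of that replicate. The lowest-scoring domains of 2L, 2R, 3L and 3R all scored 0.35, and that of X (9630740 to 9639178) scored 0.44. The one on 2L (14617920 to 14626032) was filled to 25.1% by replicate 1 and 27.0% by replicate 2, and 49.3% of it lay in no cluster of either. Those on 3L (6758706 to 6767100) and 3R (14314224 to 14322374) held no cluster of replicate 1 and were filled to 65.3% and 43.6% by replicate 2. The one on 2R (15593652 to 15603004) was filled to 40.8% and 37.1%, and that on X to 15.5% and 54.5%, by replicates 1 and 2.

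Broad domains were sparse on X and dense toward the telomeres, and on 3L and 3R also near the centromere. X carried 61 domains, or 2.72 per Mb, and the autosomal arms 680, or 7.04 per Mb, ranging from 5.95 on 3L and 6.04 on 2L to 7.85 on 3R and 8.32 on 2R. Per Mb, X thus had 0.386 times the domains of the autosomal arms (exact binomial 95% interval 0.292 to 0.503), whereas for clusters of any width in the set the ratio was 0.845. Domains made up 2.07% of the set's clusters on X (interval 1.59 to 2.65) and 4.53% of those on the autosomal arms (4.21 to 4.88). Domains covered 3.05% of X and 8.47% of the autosomal arms. On X they scored higher, with a median of 0.58 against 0.51 on the autosomal arms, and the same held for the other clusters of the set (0.43 and 0.38). Neither difference was tested, since the set is 1 list.

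In the megabase next to the telomere there were 8 domains on X, 19 on each of 2L and 2R and 18 on each of 3L and 3R. In the rest of the arms there were 2.47 per Mb on X, 5.45 on 2L, 7.79 on 2R, 5.44 on 3L and 7.47 on 3R. The 5 telomeric megabases together held 82 domains, or 11.1% of them, in 4.20% of the arms' length. Set clusters of any width numbered 145 on 2L, 127 on 3L and 144 on X in that megabase. Over these whole arms there were 150, 154 and 131 per Mb. The same count was not made at the ends of 2R and 3R. The end itself was free of domains: the outermost domain began 143763 bp from the end of 2L, and the distance was between 164591 and 185026 bp on 3L, 3R and 2R and 483439 bp on X. On X, 28 of the 61 domains (45.9%, interval 33.1 to 59.2) lay in the outermost 2 Mb, against 143 of 680 (21.0%, interval 18.0 to 24.3) on the autosomal arms. Outside these 2 Mb the density was 1.62 per Mb on X and 6.06 per Mb on the autosomal arms. The second megabase of X alone held 20 domains, among 151 set clusters of any width. Domains so close together are not independent, so the binomial intervals may be too narrow. Toward the centromere X had no domain within 3873500 bp of its last cluster, whereas the distance from the centromere-most cluster to the first domain was between 102304 and 256584 bp on the other arms. In the megabase next to that cluster there were 14 domains on 3L and 13 on 3R, against 5.95 and 7.85 per Mb over these whole arms. On 2R there were 8 and on 2L 6, close to the 8.32 and 6.04 per Mb of these arms. All arms together had 41 there, or 5.53% of the domains.

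**Figure D2:**
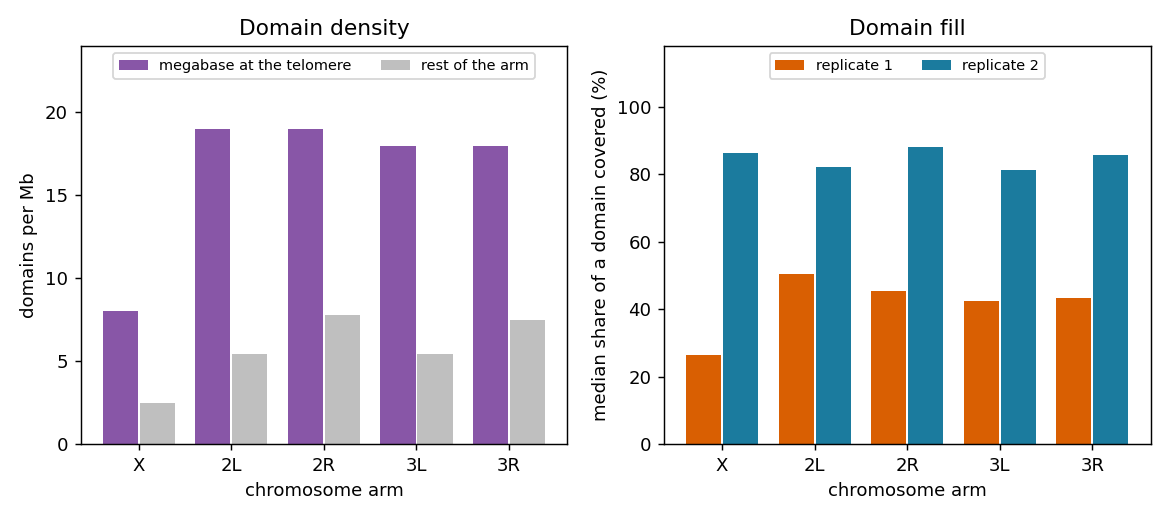
Left, domains per Mb (vertical axis) in the megabase at the telomere (purple) and in the rest of each arm (grey). Right, the median percentage of a domain covered by clusters of replicate 1 (orange) and replicate 2 (blue) on each arm. X has the fewest domains in both parts and the lowest fill by replicate 1 (26.4%), while its fill by replicate 2 (86.4%) lies within the range of the other arms.

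Counted by midpoint in 117 full megabases, the median was 5 domains, the highest 22, and 28 megabases held 50% of the domains. The richest megabases of the arms were 2R 20000001 to 21000000 with 22 domains, 3L 1000001 to 2000000 with 20, X 1000001 to 2000000 with 20, 2L 1 to 1000000 with 19 and 3R 25000001 to 26000000 with 18. Domains covered 30.7% of that 2R megabase and 24.3% of that X megabase. Across megabases the number of domains went with coverage by clusters of the set (rho 0.837), of replicate 1 (rho 0.838) and of replicate 2 (rho 0.868). The domains' own sequence is part of that coverage, so the relations are partly built in. The megabases share libraries, and no p is given for these correlations.

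The longest stretch without a domain between domains was 3.18 Mb on X, from 14955263 to 18134729. It was not without H3K23ac: it held 402 clusters of the set, the widest of 7951 bp, with a median of 1649 bp, and they covered 26.7% of it, against 41.7% of the arms as a whole. The longest such stretches were 1.66 Mb on 3L (14661401 to 16318169), 1.35 Mb on 3R (1143203 to 2493675), 1.15 Mb on 2L (13282153 to 14435243) and 0.724 Mb on 2R (4865051 to 5589029). In these, set clusters covered 33.1%, 44.4%, 38.5% and 52.8% of the sequence. Since the stretches were chosen for having no domain, their narrower clusters are a description.

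Part of the domains stood in chains. Here a chain is a run of domains in which each lies at most 10 kb from the next. Of the 741 domains 295 (39.8%, interval 36.3 to 43.4) stood in 115 chains, of which 77 had 2 members, 23 had 3, 8 had 4, 4 had 5, 2 had 6 and 1 had 8. The other 446 stood alone. No share by the same rule was taken for narrower clusters, so whether chains are particular to domains was not tested. The median distance from one domain to the next was 39.5 kb, and 51 of 736 such gaps were under 500 bp. Narrower clusters covered 49.3% of the sequence between the members of chains, against 37.0% of the arms outside domains.

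The longest chain had 8 domains over 128 kb of 2L (14507674 to 14635834). Its members had widths of 8113 to 20877 bp and scores of 0.35 to 0.55, and were filled to between 19.2% and 81.7% by replicate 1 and between 27.0% and 86.6% by replicate 2. The longest chain of 3R, with 6 domains from 25330880 to 25417042, was nearly unbroken. Its gaps were 15 to 421 bp, its domains made up all but 855 bp of 86.2 kb, and their scores were 0.57 to 0.70. Replicate 1 covered 61.3% of that stretch and replicate 2 covered 88.6%. The longest chains of 3L (1093244 to 1188826, 6 domains), 2R (15868844 to 15956734, 5 domains) and X (1275388 to 1343642, 4 domains) spanned 95.6, 87.9 and 68.3 kb.

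The short gaps between domains were rarely bridged in a single replicate. Of the 51 gaps under 500 bp between neighbouring domains, a cluster of replicate 1 spanned 1 and a cluster of replicate 2 spanned 4. Equally short gaps beside narrower clusters were not counted, so whether this is particular to domains was not tested. When clusters of the set less than 500 bp apart were joined before the minimum was applied, the number of domains was 1374, and the widest was the 3R chain with 86163 bp. The number and width of domains therefore depend on the rule by which neighbouring clusters are joined.

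Domains had close neighbours, as did the next widest clusters. The gap to the next cluster of the set had a median of 783 bp beside domains, 985 bp beside clusters of at least 4000 but under 8000 bp, and 1473 bp beside all clusters under 8000 bp. On the nearer side these medians were 327, 382 and 597 bp. Within 1000 bp on at least one side, 580 domains (78.3%) had another cluster, against 73.8% of the clusters of at least 4000 but under 8000 bp and 62.4% of all under 8000 bp. Close neighbours were therefore not particular to domains. The neighbours of domains had a median width of 2847 bp, against 2305 and 1892 bp for the neighbours of these groups, and 14.0% of them were domains themselves, against 7.64% and 3.70%. The median score of the domains' neighbours was 0.41, below that of the domains.

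Beyond the first kilobase the surroundings of domains were richly covered. Set clusters covered 36.1% of the first flanking kilobase, 61.7% of the second and 66.3% of the tenth, and 41.7% of the arms as a whole. Clusters of replicate 1 covered 6.98%, 18.6% and 22.4% of these kilobases and 10.5% of the arms. Clusters of replicate 2 covered 21.3%, 41.1% and 47.1%, and 25.2% of the arms. The first kilobase includes the gap that ends each domain, and coverage at 10 kb had not returned to the level of the arms.

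**Figure D3:**
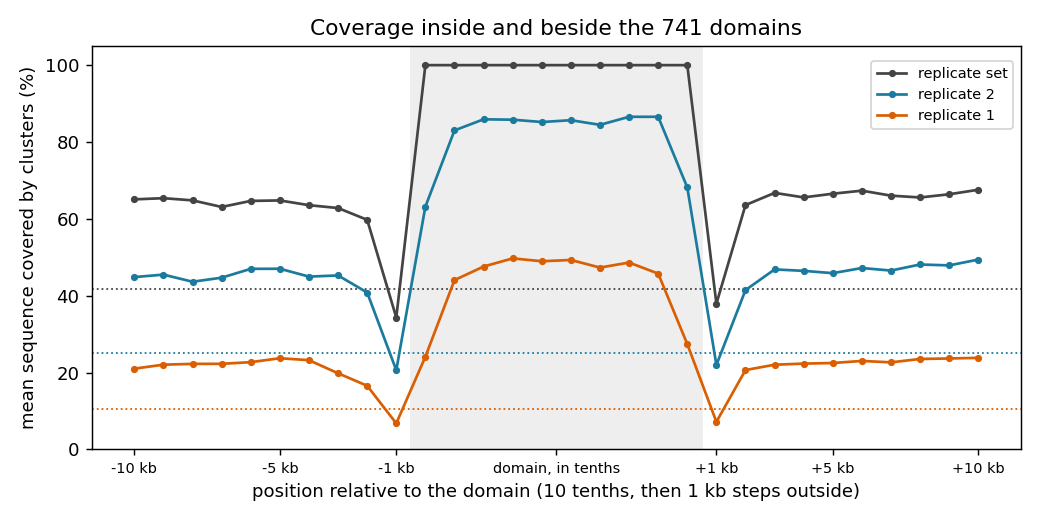
Mean percentage of sequence covered by clusters (vertical axis) of the replicate set, replicate 2 and replicate 1 over the 741 domains, each divided into 10 equal segments (shaded), and over 10 flanking kb on either side. Dotted lines give the coverage of the arms as a whole. Both replicates are lower in the outer segments than in the middle, and at 10 kb all 3 lists lie above their dotted lines.

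Replicate 2 filled most of nearly every domain, and replicate 1 marked parts of them. The median share of a domain covered by clusters was 43.9% in replicate 1 (quartiles 26.6% and 58.3%) and 84.9% in replicate 2 (quartiles 73.0% and 93.2%), a mean of 64.4 ± 29.0% (SD, n = 2). The clusters of at least 4000 but under 8000 bp had medians of 32.8% and 76.0%. The list of replicate 1 held 6250 clusters on these arms and that of replicate 2 held 11742. They covered 10.5% and 25.2% of the arms as a whole, so the greater cover by replicate 2 was not particular to domains. Of all domain sequence, 39.5% lay in clusters of both replicates, 5.28% in replicate 1 alone, 42.8% in replicate 2 alone and 12.3% in neither. For the clusters of at least 4000 but under 8000 bp these shares were 26.6%, 7.04%, 44.9% and 21.4%.

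Replicate 2 had a cluster in 741 of 741 domains (55.5% of all set clusters on the arms had one) and replicate 1 in 696 (93.9%, interval 92.0 to 95.5, against 27.2% of all set clusters). Both replicates were thus present in 696 domains, with 21.9% as the value over all set clusters. Many of those clusters are much narrower, and among the clusters of at least 4000 but under 8000 bp the shares were 71.5% for replicate 1, 96.5% for replicate 2 and 69.2% for both. At least 50% of the domain was covered by replicate 1 in 296 domains (39.9%, against 16.2% over all set clusters), by replicate 2 in 718 (96.9%, against 50.6%) and by each of them in 286 (38.6%, against 10.9%). A wide region meets any list more often than a narrow one, and these shares were not corrected for width. Replicate 2 covered as much of a domain as replicate 1 or more in all but 44 domains (5.94%, against 9.49% of all set clusters in which replicate 1 covered more). In 101 domains (13.6%, against 55.8% of all set clusters) over 25% of the sequence lay in no cluster of either replicate. Of the clusters of at least 4000 but under 8000 bp, replicate 1 covered more in 12.2%, and 35.2% had over 25% in neither.

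**Figure D4:**
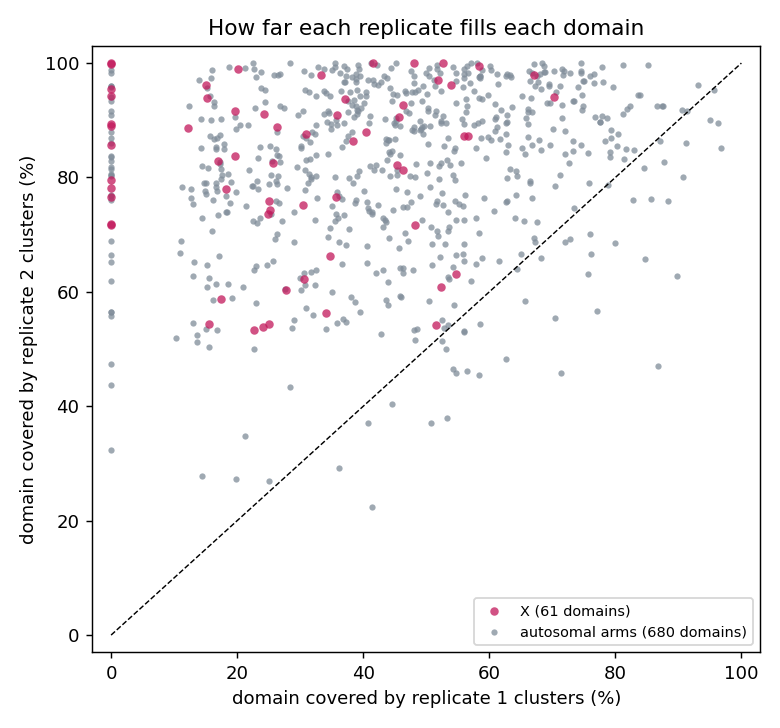
Percentage of each domain covered by clusters of replicate 1 (horizontal axis) and of replicate 2 (vertical axis), with the 61 domains of X in red and the 680 of the autosomal arms in grey. The dashed line marks equal cover: 44 domains, none on X, lie below it, and the 45 domains at 0 on the horizontal axis held no cluster of replicate 1.

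Fill was only slightly higher in wider domains, with a rho between width and fill of 0.165 for replicate 1 and 0.128 for replicate 2 across the 741. Domains under 10000 bp had median fills of 39.2% in replicate 1 and 81.9% in replicate 2, and those of 20000 bp or more 55.7% and 89.3%. Fill went more closely with the score, with a rho of 0.467 for replicate 1 and 0.643 for replicate 2. The score of a domain followed the mean score of the replicate 2 clusters in it (rho 0.853, 741 domains) more closely than that of the replicate 1 clusters (rho 0.500, 696 domains). The replicate set contains both libraries, so such relations are partly built in.

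Single clusters of a replicate seldom spanned a domain. A domain held a median of 2 clusters in either replicate. Replicate 1 had 1 cluster in 182 domains, 2 in 260, 3 in 157 and 4 or more in the rest of those it marked, up to 10, and replicate 2 had 1 in 176, 2 in 301 and 3 in 175, up to 7. The largest cluster of replicate 1 covered a median of 22.7% of the domain and that of replicate 2 51.5%. In 157 domains (21.2%, against 32.0% of all set clusters) 1 cluster of either replicate covered at least 80%. Replicate 2 accounted for 154 of these (20.8%, against 28.7%) and replicate 1 for 4 (0.540%, against 4.46%), and 11 domains (1.48%, against 5.99%) were filled completely by replicate 2.

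The breaks between a replicate's clusters inside domains were short in replicate 2 and longer in replicate 1. The 948 inner gaps of replicate 2 had a median of 512.5 bp, and replicate 1 covered 37.0% of their sequence. The 939 inner gaps of replicate 1 had a median of 1048 bp, and replicate 2 covered 83.6% of them. Of all domain sequence, replicate 1 covered 44.8% and replicate 2 covered 82.4%. The other replicate thus covered these gaps little or no more than domains at large. At the ends of domains, the outermost cluster of replicate 2 stopped a median of 168 bp inside the end, and 49.5% of 1482 ends matched within 200 bp. The outermost cluster of replicate 1 stopped a median of 1478.5 bp inside, with 14.5% of 1392 ends within 200 bp. Clusters of replicate 2 ran beyond the domain at 308 ends (20.8%), and those of replicate 1 at 53 (3.81%). With domains cut into 10 equal segments, replicate 1 covered 25.8% of the 2 outer and 49.1% of the 2 middle segments, and replicate 2 covered 65.7% and 85.4%.

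Conversely, the widest clusters of the replicates lay in these domains. Of the clusters at least 8000 bp wide, 19 of 19 in replicate 1 and 225 of 229 in replicate 2 overlapped a domain. In replicate 1, clusters that overlapped domains were typically 1978 bp wide with a score of 0.57 (medians), against 1639 bp and 0.54 elsewhere. In replicate 2 they had 3276 bp and 0.60, against 1873 bp and 0.54. Domains took in 26.1% of the clusters of replicate 1 and 14.4% of those of replicate 2. The set was made from these replicates and domains were chosen by width. The overlap of wide clusters and the greater widths and scores in domains are therefore partly built in, and were not tested.

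The 10 widest domains lay on 3L, 2R and 3R. The widest, 3L 448528 to 490420 (41893 bp, score 0.56), lay in both replicates over 59.97% of its length, in replicate 2 alone over 29.5%, in replicate 1 alone over 2.61% and in neither over 7.89%. Its 10 clusters of replicate 1 each covered at most 12.5% of it, while the largest of its 3 clusters of replicate 2 covered 56.7%. On 2R, the domain from 3038264 to 3073934 likewise held 10 clusters of replicate 1, each covering at most 7.22%, and 2 of replicate 2. A pair of domains of 3L (22365612 to 22401032 and 22407882 to 22440622) lay 6849 bp apart near the centromere, and the second contained 9 replicate 1 clusters and 7 replicate 2 clusters, the most for replicate 2 in any domain. The 2R domain from 20722466 to 20756950 had the highest score of the 10, 0.74, and was shared by both replicates over 74.7% of its length.

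The 5 others of these 10 had fills of 48.0% to 83.7% in replicate 1 and 84.6% to 97.8% in replicate 2. They were 3L 785230 to 816556, 3R 6375352 to 6404960, 3R 25330880 to 25358632, 2R 15920652 to 15948246 and 2R 18131198 to 18158290. The first had the highest fill by replicate 1 among the 10 and the fourth the lowest. The widest domain of 2L (5119120 to 5145358, 26239 bp) held a cluster of replicate 1 that covered 60.1% of it, while in the 10 widest no cluster of replicate 1 covered more than 41.6%. Its largest cluster of replicate 2 covered 59.3%. In the widest of X (1185284 to 1204954, 19671 bp), clusters of replicate 1 covered 37.2%, all of it inside clusters of replicate 2, which covered 93.8%.

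**Figure D5:**
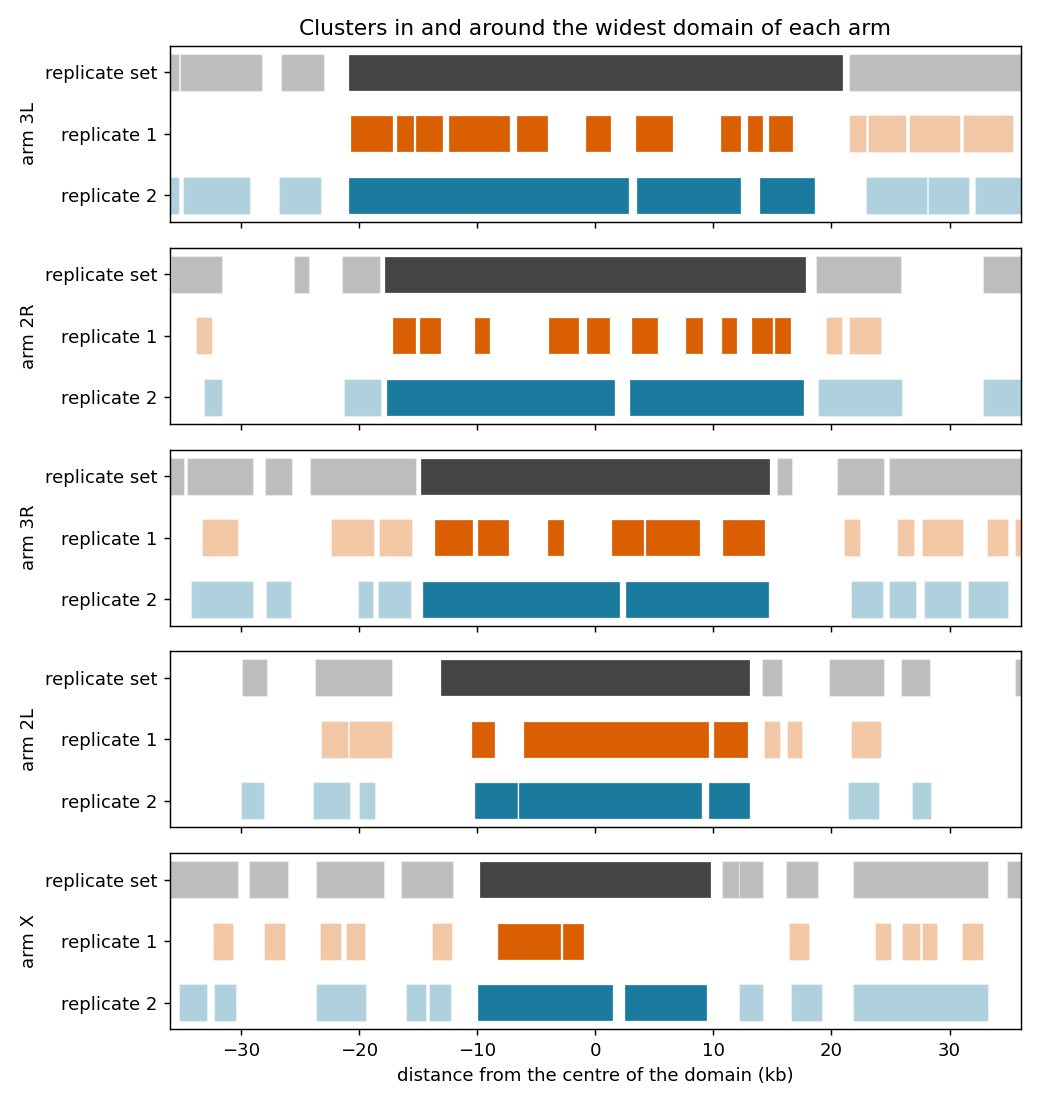
Clusters of the replicate set (grey), replicate 1 (orange) and replicate 2 (blue) in and around the widest domain of each arm, against distance from the domain's centre in kb. Dark bars overlap the domain and pale bars lie outside it. Replicate 2 marks each domain with 2 or 3 mostly long clusters, and replicate 1 with 2 to 10 mostly shorter ones.

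Replicate 1 filled clusters of X less than those of the autosomes, in domains and in the other clusters of the set alike, while the values of replicate 2 were closer. In replicate 1 the median fill of a domain was 26.4% on X (quartiles 15.5% and 45.8%) and 44.8% on the autosomal arms (29.9% and 59.2%). In replicate 2 it was 86.4% on X (73.6% and 93.9%) and 84.8% on the autosomal arms (73.0% and 93.1%). The mean fill by replicate 1 was 28.7% on X and 44.6% on the autosomal arms for domains, and 9.96% and 15.3% for the other clusters. By replicate 2 it was 82.0% and 81.4% for domains, and 39.5% and 43.4% for the other clusters. The lower fill of X by replicate 1 was thus not particular to domains. No cluster of replicate 1 was found in 12 of the 61 domains of X (19.7%, interval 10.6 to 31.8) and in 33 of the 680 of the autosomal arms (4.85%, interval 3.36 to 6.75). Over all set clusters this share was taken only for the arms together, at 72.8%. Whether the contrast in these counts is particular to domains was therefore not tested. Where replicate 1 had a cluster, its median fill was 34.2% on X and 46.3% on the autosomal arms. The clusters it did have in domains scored higher on X, with a median of 0.66 against 0.57, as did those of replicate 2 (0.73 against 0.63). With 2 replicates that differ in the length of their lists, whether X differs between them was not tested.

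In all, 45 domains (6.07%, against 72.8% of all set clusters) held no cluster of replicate 1. They were narrower than the rest, with a median of 9069 bp against 10600 bp, and 36 of them were under 10000 bp wide. Their median score was 0.48 against 0.52, and replicate 2 filled them to a median of 81.8% against 85.1%. The widest of them were 2L 6690636 to 6704894 (14259 bp, score 0.41), X 1421686 to 1433756 (12071 bp, score 0.66) and 2R 4587582 to 4599462 (11881 bp, score 0.50), which replicate 2 filled to 76.9%, 89.0% and 88.0%. The X domain scored above the upper quartile of all domains and lacked replicate 1 all the same.

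At the other end, replicate 1 filled 3L 21461620 to 21470038 to 96.8%, 3R 12136630 to 12146472 to 96.3% and 2L 1669760 to 1679452 to 95.6%. Replicate 2 filled them to 85.2%, 89.6% and 95.2%, the first of these in 3 clusters and close to the median of all domains. The widest that replicate 2 filled completely were 2R 11709296 to 11721916, 3L 1759150 to 1771756 and 3R 25444728 to 25456594, each with 1 cluster, and replicate 1 filled them to 41.2%, 68.3% and 22.6%. The domains that replicate 2 filled least were 2R 7620404 to 7629048 with 22.5%, 2L 14617920 to 14626032 with 27.0% and 2R 15977146 to 15985338 with 27.2%. Replicate 1 filled these to 41.4%, 25.1% and 19.8%, and in none of the 3 did the replicates share more than 1.44% of the domain.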

How the data were processed

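ChIP-seq of H3K23ac was made from wild-type larval nuclei as 2 ChIP and 2 input libraries, grouped by their titles. The submitters' processing notes name Bowtie 0.12.7, an aligner of short reads. Per the file headers, each list gives significantly enriched clusters on FlyBase release 5, and the authors deposited 1 score per cluster without stating its scale. No source used here gives the peak caller, its threshold or the way the replicates were joined. A caller finds more clusters in a deeper or cleaner library, and the length of a list is no measure of the mark's amount.

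Coordinates are 1-based as deposited, overlap means at least 1 bp, and arm lengths came from the file headers. The software was Python 3.11.15 with numpy 2.4.6, pandas 2.3.3 and scipy 1.17.1. Intervals of shares are exact (Clopper-Pearson) at 95%. The whole numbers behind scores were sought up to a denominator of 20000. Their constant is known up to a ratio of small whole numbers, and the smallest whole numbers were kept. Fill, chains and ratios were checked on simulated data, where 1000 of 1000 fills, 999 of 999 links and 1000 of 1000 ratios were recovered.

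The members and lists were chosen with earlier results of these data known. Domains named by coordinates are the 10 widest, the widest, highest-scoring and lowest-scoring of each arm, the 3 least and 3 most filled by each replicate (ties by width), those beside the width minimum, and each arm's longest chain, longest domain-free stretch and richest megabase. Gene names and sequences were not used here, since the gene table at hand is of release 6. Other widths, score filters, overlaps and chain distances and each replicate alone were tried.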

Additional observations from a re-analysis of the deposited data

How the results depend on the processing

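Domains per Mb on X relative to the autosomes stayed below 1, at 0.344 to 0.473 under the other widths, the joining and the score filter. The number of domains was 1389 with a minimum of 6000 bp, 419 with 10000 bp, 1374 after joining and 726 in the better-scored 50% of the set. The median score was 0.49 and 0.53 with these minimums. The share in chains was 54.7% and 31.7% with these minimums, and 29.7% and 54.8% at distances of 5 and 20 kb. With the better-scored 50% of each replicate list the median fill was 28.0% in replicate 1 and 75.03% in replicate 2. With at least 50% covered by each, both replicates marked 286 domains. Leaving out one replicate gave a median fill of 43.9% to 84.9%, and 4 to 154 domains held to at least 80% by 1 cluster. With at least 50% in place of 80% the number of these was 395. The median gap was 1153 bp to clusters at least 1500 bp wide. The outermost 2 Mb of the arms held 23.1% of domains. Each of these settings changes which clusters or how much cover is counted. No paired analysis was possible because the lists analysed hold values of the ChIP libraries and none of the inputs with the same numbers, and each value comes from no test. Without read totals, whether missing replicate 1 clusters reflect depth was not tested.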

Other observations

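Domains were absent from 12 of the 117 full megabases, 7 of the 22 on X and 5 of the 95 on the autosomal arms. Those of X were 12000001 to 13000000, the 3 from 15000001 to 18000000 and the 3 from 19000001 to 22000000, and set clusters covered 14.2% to 34.8% of each. On 3L, 15000001 to 16000000 and 18000001 to 19000000 had 163 and 148 set clusters and no domain. The other 3, on 2L, 2R and 3L, lay toward the centromere and held 30, 0 and 0 set clusters.

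The highest share of a domain in no cluster of either replicate, chosen after the values were seen, was 72.1% in 2R 12586690 to 12598474 (11785 bp, score 0.41), which replicate 1 covered to 14.48% and replicate 2 to 27.9%. The domain in which replicate 1 exceeded replicate 2 the most, also chosen afterwards, was 2R 17351364 to 17359436, with 86.8% in replicate 1 and 47.1% in replicate 2. Of the 44 domains with more cover in replicate 1, 0 lay on X, 14 on 2L, 8 on 2R and 11 on each of 3L and 3R.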
